A study of Mus musculus with 9 samples.

Results

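Of 265671 autosomal tiles of 100 bp with at least 10 calls in each of 8 mouse samples, 615 were more methylated in every nuclear-transfer embryo sample than in any fibroblast sample and had a mean difference of at least 20 percentage points. These tiles, here called gaining tiles, were chosen by that difference, so their levels in the 2 stages are given as a description and without a test. They made up 0.231% of the tested tiles, while 15980 tiles, 6.01%, met the mirrored rule, with every embryo sample below every fibroblast sample. The embryos, labelled NTZy14 and here called NT embryos, were made by placing the nucleus of a cultured tail-tip fibroblast from an adult male mouse into an enucleated C57/B6 oocyte. They were activated with strontium chloride in the presence of cytochalasin B and cultured in KSOM, and the first polar body had been biopsied. The fibroblasts, labelled TT, had been passaged and grown to confluence in serum, and are the kind of cell that served as nuclear donor. Each stage held 2 samples labelled BDF1-CAST (numbers 1 and 2) and 2 labelled X1 (numbers 3 and 4), written below as NT1 to NT4 and TT1 to TT4. Neither strain label is explained in the sources used here, nor is the number of embryos pooled in a library.

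Methylation of mammalian DNA sits mainly on the cytosine of CpG pairs. The maintenance enzyme Dnmt1 copies it after replication, Dnmt3a and Dnmt3b place it on unmethylated DNA, and Tet enzymes oxidise it. The egg is known for lowering the methylation of the sperm genome after fertilisation, and nuclear transfer exposes a somatic genome to the same cytoplasm. Tiles whose level is higher in the embryo than in the donor cell type run against that main direction.

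The promoters below hold the gaining tiles that lie across the 5′ flank of a gene start and whose sequence could be placed on the files' build. Each is the stretch of 250 bases before an annotated start, 5′ to 3′ on the strand of the gene, from the RefSeq promoter table (GRCm38.p6). Each was placed on mm9 by an exact match between its CpG spacing and the CpG positions in the files. Capitals mark the CpGs that have calls and lie in a gaining tile. The Nav1 window is chr1:137481933-137482182 on the minus strand, the Dpep1 window is chr8:125709885-125710134 on the plus strand and the Acp5 window is chr9:21936310-21936559 on the minus strand.
Nav1: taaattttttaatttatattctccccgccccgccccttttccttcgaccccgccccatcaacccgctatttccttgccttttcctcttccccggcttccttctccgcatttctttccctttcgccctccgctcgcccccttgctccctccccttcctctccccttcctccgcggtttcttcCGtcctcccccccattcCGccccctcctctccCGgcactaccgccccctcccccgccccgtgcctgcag
Dpep1: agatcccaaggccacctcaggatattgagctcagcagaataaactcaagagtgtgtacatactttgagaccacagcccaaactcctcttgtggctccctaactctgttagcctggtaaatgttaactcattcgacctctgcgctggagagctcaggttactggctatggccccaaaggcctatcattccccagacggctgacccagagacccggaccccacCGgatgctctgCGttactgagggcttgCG
Acp5: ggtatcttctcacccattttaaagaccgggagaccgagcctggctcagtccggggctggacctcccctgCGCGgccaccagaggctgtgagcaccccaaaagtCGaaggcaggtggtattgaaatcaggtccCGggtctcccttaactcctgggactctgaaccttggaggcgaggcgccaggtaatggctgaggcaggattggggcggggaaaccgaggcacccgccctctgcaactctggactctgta
CpGs were counted in the promoter sequence used for placement, which continues past the start and beyond the printed bases. That sequence held 24 CpGs for Nav1, 17 for Acp5 and 9 for Dpep1, so Nav1 was the richest of them. Tiles are named below by chromosome and by the deposited start of their 100 bp on mm9.

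The level of a tile is its methylated calls over all its calls, in percent. NT embryo samples held 25239364 to 30396273 calls and fibroblast samples 35442175 to 80142240. A gaining tile had a median of 36, 33, 36 and 30 calls in NT1 to NT4, against 107, 58, 48 and 49 calls in TT1 to TT4. The embryo levels therefore rest on fewer calls. No source says that samples of a group came from separate animals or cultures, so spreads and p-values describe these samples and may be technical. Amplified reads without molecular identifiers are not independent molecules, and a whole-sample mean cannot separate a partial gain in all cells from a full gain in some.

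Over the 615 tiles, the mean level was 65.3% in NT1, 64.1% in NT2, 74.4% in NT3 and 73.1% in NT4, against 36.3% in TT1, 33.4% in TT2, 42.5% in TT3 and 37.5% in TT4. The X1 embryos NT3 and NT4 were the highest, and the groups did not overlap, as the rule requires. The means were 69.2% ± 5.28 in NT embryos and 37.4% ± 3.79 in fibroblasts (SD, n = 4 each). The other tested tiles, weighted to the same fibroblast levels in steps of 5 points, averaged 32.5% ± 6.21 in NT embryos and 37.4% ± 3.42 in fibroblasts (SD, n = 4 each). In the same embryos, tiles that started at the same level were thus on average 4.85 points below the fibroblasts, against 31.8 points above for the gaining tiles. All tested tiles together averaged 42.0% ± 3.11 in NT embryos and 48.6% ± 1.39 in fibroblasts (SD, n = 4 each).

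**Figure D1:**
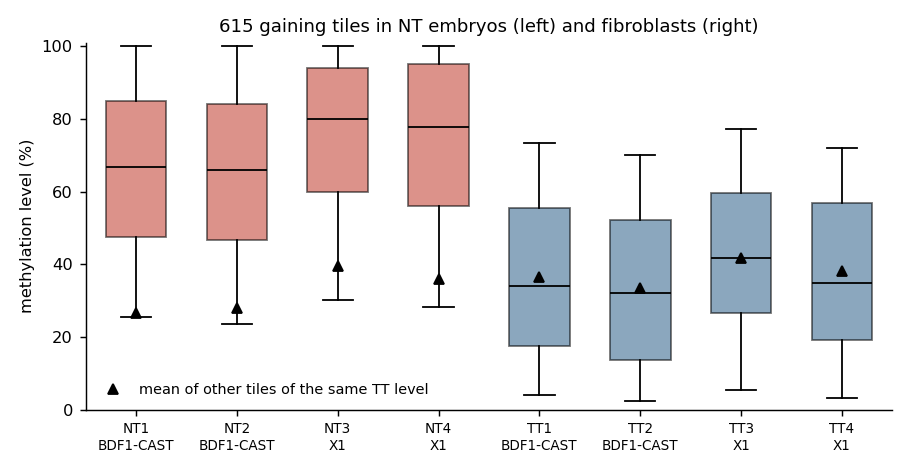
Methylation of the 615 gaining tiles in each sample. The vertical axis is the tile level in percent, boxes show the median and quartiles over tiles, whiskers leave out the lowest and highest 5% of tiles, and triangles mark the mean of other tiles weighted to the same fibroblast level. The NT embryo medians lie between 65.9% and 80%, and the fibroblast medians between 32.1% and 41.7%.

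Many gaining tiles were nearly fully methylated in the embryos. The share of tiles at 80% or above was 31.2% in NT1, 30.4% in NT2, 50.2% in NT3 and 46.3% in NT4, against 1.46%, 1.30%, 3.25% and 2.76% in TT1 to TT4. The share below 20% was 3.09%, 3.90%, 2.11% and 2.28% in NT1 to NT4, against 29.3%, 35.3%, 17.1% and 25.9% in TT1 to TT4. In 103 tiles all 4 embryo samples reached 80%, and in 0 of these were all 4 fibroblast samples below 50%. In 297 tiles the mean was above 50% in NT embryos and below it in fibroblasts, and in 115 tiles the embryo mean stayed under 50%.

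The share of gaining tiles differed with the fibroblast level. Among tiles under 10% in fibroblasts, 59 of 92939 were gaining tiles, 0.0635%, and their mean was 35.0% ± 5.52 in NT embryos and 4.72% ± 1.10 in fibroblasts (SD, n = 4 each). Between 10 and 30% the share was 1.47%, 201 of 13669 tiles, with 56.7% ± 8.28 in NT embryos and 20.5% ± 4.89 in fibroblasts. Tiles in this range had 2.47% meeting the mirrored rule, and a loss of 20 points has little room at such a level. Between 30 and 50% the share was 1.33%, 152 of 11459 tiles, with 73.0% ± 5.61 in NT embryos and 39.7% ± 4.04 in fibroblasts, and 9.87% met the mirrored rule. Between 50 and 80% the share was 0.433%, 203 of 46846 tiles, with 88.8% ± 2.46 in NT embryos and 61.9% ± 3.49 in fibroblasts, and 10.4% met the mirrored rule.

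The difference between the stage means ran from 20.03 to 63.5 points, with a median of 29.4, and 32 tiles reached 50 points. The distance between the lowest embryo sample and the highest fibroblast sample had a median of 6.69 points, was below 5 points in 232 tiles and reached 20 points in 58. The highest fibroblast sample was TT3 in 285 tiles, and the lowest embryo sample was NT1 in 214 and NT2 in 213. The rule therefore often set an X1 fibroblast sample against a BDF1-CAST embryo sample. Just inside the 20-point limit lay the tile at chromosome 2, start 83306000, with a difference of 20.03 points, and chromosome 13, start 52597100, with 20.04. Just outside lay chromosome 5, start 150994600, with 19.99 points, and chromosome 3, start 82394800, with 19.98. In the model of stage and strain, which uses the same contrast as the choice, 300 gaining tiles had an adjusted p under 0.05 for stage, where 0.181% of all tested tiles were called higher by at least 20 points. Nothing is read from that count. Separation alone was met by 2293 tiles and the 20-point difference alone by 3282. Leaving out 1 sample raised the count of 615 to 1898 without NT1, 1776 without NT2, 1169 without NT4 and 1210 without TT3. Such a setting asks for separation of fewer samples and also tests more tiles, 279617 without NT1 and 298681 without NT4. The part of each in the higher counts was not tested.

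The tiles with the largest differences had few CpGs. The tile at chromosome 15, start 27927400, has 2 CpGs and lies 28152 bp downstream of a start of Trio, a guanine nucleotide exchange factor, within the gene's length. Its level was 62.1%, 78.3%, 89.5% and 89.5% in NT1 to NT4, against 5.50%, 3.57%, 37.9% and 18.4% in TT1 to TT4. All 4 embryo samples lay above 60%, and the X1 samples were the higher ones in each stage. The tile at chromosome 5, start 12242900, has 1 CpG, and the nearest placed gene start lies 2271968 bp away. It had 95.5%, 78.6%, 37.9% and 50% in NT1 to NT4, against 3.08%, 0%, 18.8% and 5.77% in TT1 to TT4. Here the BDF1-CAST embryos were the high ones and the BDF1-CAST fibroblasts the low ones. The tile at chromosome 5, start 113564600, had 50%, 92.3%, 40% and 100% in NT1 to NT4, against 20%, 12.5%, 11.9% and 3.57% in TT1 to TT4. Its 2 CpGs had as few as 10 calls in a sample, and its embryo samples ran from 40% to 100%.

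**Figure D2:**
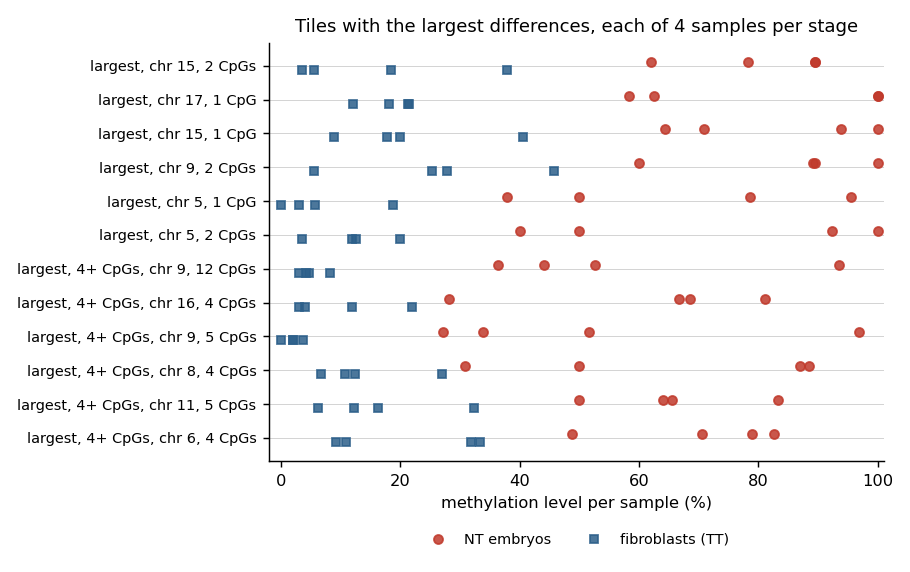
Levels in each sample of the 6 gaining tiles with the largest differences and the 6 largest among tiles with at least 4 CpGs. The horizontal axis is the tile level in percent, circles are NT embryo samples and squares are fibroblast samples. Embryo samples are spread within a tile, as from 27.2% to 96.9% in a chromosome 9 tile near Acp5 whose fibroblast samples all lie at or below 3.70%.

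Where at least 4 CpGs carried the level, the largest differences included the tile at chromosome 16, start 92153400, with 4 CpGs. Its level was 68.5%, 28.1%, 81.0% and 66.7% in NT1 to NT4, against 11.8%, 2.94%, 22.0% and 4.00% in TT1 to TT4. NT2 lay far below the other embryo samples and 6.17 points above the highest fibroblast sample. The tile at chromosome 8, start 50987200, also with 4 CpGs, had 30.9%, 50%, 88.5% and 87.0% in NT1 to NT4, against 12.3%, 10.8%, 27.0% and 6.67% in TT1 to TT4. The X1 embryos were much the higher ones there, and NT1 lay 3.94 points above TT3. The tile at chromosome 11, start 79668800, with 5 CpGs, had 50%, 65.5%, 83.3% and 64.0% in NT1 to NT4, against 16.3%, 6.12%, 32.4% and 12.3% in TT1 to TT4. The tile at chromosome 6, start 117180700, with 4 CpGs, had 70.6%, 48.8%, 82.6% and 78.9% in NT1 to NT4, against 10.9%, 9.21%, 33.3% and 31.8% in TT1 to TT4. In both of these tiles NT3 was the highest embryo sample and TT3 the highest fibroblast sample. The nearest placed gene start lay 94870 to 1911352 bp from these 4 tiles.

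Among the gaining tiles under 10% in fibroblasts, 1 of the 4 with the largest differences was at chromosome 2, start 14217200, and has 1 CpG. It had 61.1%, 11.8%, 73.3% and 60.0% in NT1 to NT4, against 1.56%, 0%, 0% and 6.90% in TT1 to TT4. NT2 was close to the fibroblasts and the other embryo samples were far above them.

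CpGs with enough calls within a gaining tile were higher together. In 102 gaining tiles at least 2 CpGs had 10 or more calls in all samples, and each of their 262 CpGs had a higher mean in NT embryos than in fibroblasts. Of these CpGs, 142 were separate between the groups by themselves, and in 29 tiles every such CpG was. The choice fixes much of this, because the level of a tile pools the calls of its CpGs and a read covers several of them. CpGs with fewer calls were not counted here.

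Gaining tiles near gene starts were few. Starts could be placed on mm9 for 7219 genes, and 25 gaining tiles lay within 5 kb of the start of 21 genes, 15 of them within 1 kb. Of the 25, 5 lay upstream and 20 downstream of the start. The share of gaining tiles within 5 kb of a placed start was 4.19%, against 12.4% of other tiles weighted to the same fibroblast levels and 20.4% of all tested tiles. The values in the next paragraphs were chosen for the position of the tile and after they had been seen.

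Acp5 encodes tartrate-resistant acid phosphatase, an enzyme of osteoclasts and macrophages. Around 1 of its annotated starts 3 gaining tiles with 21 CpGs lay between 21935900 and 21936499. The tile 58 bp downstream of that start, chromosome 9, start 21936200, has 12 CpGs and had 44.1%, 52.6%, 36.4% and 93.5% in NT1 to NT4, against 4.20%, 4.76%, 8.21% and 2.98% in TT1 to TT4. The lowest embryo sample, NT3, was 28.2 points above the highest fibroblast sample. The level of NT3 rests on 11 calls, so that distance is uncertain. The tile 358 bp downstream had 27.2%, 96.9%, 51.6% and 33.9% in NT1 to NT4, against 1.96%, 0%, 3.70% and 1.94% in TT1 to TT4. The tile 142 bp upstream, whose CpGs are in capitals in the Acp5 sequence, had 51.9%, 32.3%, 13.2% and 24.7% in NT1 to NT4, against 10.1%, 12.1%, 6.15% and 10.3% in TT1 to TT4. The highest embryo sample was a different one in each of the 3 tiles, while the fibroblasts stayed at or below 12.1%. The region held 12 CpGs with at least 5 calls in all fibroblast samples and in at least 3 embryo samples. Of these, 11 were higher in NT embryos and 8 were separate between the groups. NT3 is not counted at the CpGs 34 to 63 bp downstream of the start, where it had fewer calls.

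Ncmap encodes a protein of noncompact myelin. Downstream of 1 of its starts 3 gaining tiles lay at 292, 492 and 792 bp, with 15 CpGs. Averaged over the 3 tiles, the level was 48.3%, 57.3%, 60.4% and 69.4% in NT1 to NT4, against 24.7%, 12.9%, 33.4% and 23.2% in TT1 to TT4. Among these 3 tiles the level in both stages was higher the farther a tile lay from the start. At 292 bp it was 30.4% ± 6.68 in NT embryos and 6.29% ± 1.52 in fibroblasts, at 492 bp 54.2% ± 13.1 in NT embryos and 24.2% ± 9.44 in fibroblasts, and at 792 bp 92.0% ± 6.47 in NT embryos and 40.2% ± 18.3 in fibroblasts (SD, n = 4 each). All 27 CpGs with enough calls between 28 bp before and 812 bp after the start were higher in NT embryos. Counting samples with at least 5 calls, 6 of them were separate between the groups. CpGs between the gaining tiles did not follow the order with distance. In fibroblasts their mean was 84.9% at 718 bp and 5.57% at 552 bp.

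Other promoters held 1 gaining tile each. Bmp6 encodes a bone morphogenetic protein, a secreted signal, and its tile 266 bp downstream has 7 CpGs. It had 25%, 51.4%, 10.8% and 28.0% in NT1 to NT4, against 1.92%, 0%, 1.55% and 4.58% in TT1 to TT4. Nav1 encodes a microtubule-associated neuron navigator, and its tile 18 bp upstream, with 9 CpGs, had 6.67%, 33.7%, 22.0% and 33.3% in NT1 to NT4, against 2.63%, 4.00%, 1.45% and 5.48% in TT1 to TT4. The fibroblasts were nearly unmethylated at both, and the lowest embryo sample came within 6.27 points of the fibroblasts at Bmp6 and within 1.19 points at Nav1. In the Nav1 sequence the first CpG in capitals, 69 bp before the start, had 0%, 26.9%, 46.7% and 40.6% in NT1 to NT4, against 4.94%, 7.32%, 5.13% and 4.76% in TT1 to TT4. NT1 lay below the fibroblasts at that CpG, so the groups overlapped there. Dpep1 encodes a membrane dipeptidase known from the kidney, and its tile began from a middle level, with 65.5%, 54.8%, 76.8% and 50% in NT1 to NT4, against 36.4%, 42.7%, 48.5% and 30.8% in TT1 to TT4. Of the 3 CpGs in capitals in the Dpep1 sequence, the one 29 bp before the start was 39.1 points higher in NT embryos, the one 18 bp before it 27.9 points and the one 2 bp before it 4.03 points. The difference was thus unequal among neighbouring CpGs of the same tile.

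The tile 650 bp downstream of Slc30a3, the zinc transporter of synaptic vesicles, had 44.3%, 17.3%, 23.5% and 10.3% in NT1 to NT4, against 2.86%, 2.35%, 2.17% and 2.82% in TT1 to TT4. The tile 4000 bp downstream of a start of Chrnb4, a nicotinic acetylcholine receptor subunit, had 23.9%, 47.3%, 44.6% and 58.2% in NT1 to NT4, against 14%, 11%, 19.9% and 17.4% in TT1 to TT4. Diras1 encodes a Ras-family GTPase, and the tile 3828 bp upstream of it had 95.2%, 76.9%, 100% and 100% in NT1 to NT4, against 40.5%, 52.2%, 50% and 53.4% in TT1 to TT4. The fibroblast samples were closer together than the embryo samples at all 3 tiles, and the embryos were low and uneven at Slc30a3 but close to full methylation at Diras1.

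Ethe1 encodes a mitochondrial sulfur dioxygenase, and its tile 724 bp downstream averaged 48.4% ± 14.1 in NT embryos and 15.4% ± 8.40 in fibroblasts (SD, n = 4 each). Egln2 encodes a prolyl hydroxylase that marks hypoxia-inducible factor, and its tile 1470 bp downstream averaged 67.6% ± 21.7 in NT embryos and 36.9% ± 5.23 in fibroblasts. Alad encodes an enzyme of heme synthesis, and its tile 2092 bp downstream averaged 55.5% ± 17.7 in NT embryos and 22.4% ± 6.79 in fibroblasts. A start of the long noncoding RNA gene Gm38483 had a tile 50 bp downstream with 46.1%, 19.7%, 63.8% and 40.6% in NT1 to NT4, against 8.02%, 7.57%, 10.1% and 9.17% in TT1 to TT4. Of genes listed for their roles, the 6 germline genes that could be placed had 20 tested tiles within 5 kb, of which 0 were gaining tiles and 5 met the mirrored rule, where the shares over all tested tiles are 0.231% and 6.01%. The median difference of those tiles, NT embryos minus fibroblasts, was -21.9 points. The 2 placed pluripotency genes had 39 tiles and the 1 placed fibroblast gene 2, with 0 gaining tiles and medians of -0.443 and -1.38 points. With so few tiles, a count of 0 gaining tiles is near the background and says nothing of these genes. No gene of the list for oocyte and cumulus cells could be placed, so tiles at such genes were not examined.

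Gaining tiles were mostly alone. Only 382 of the 615 had a tested tile within 1 kb, so the others could only be single. Joined within 1 kb, the gaining tiles formed 591 stretches, of which 572 held a single tile, 16 held 2 and 3 held 3 or more. The longest lay on chromosome 5, from 140914600 to 140915499, with no placed start within 5 kb, and held 5 gaining tiles with 9 CpGs. Averaged over these tiles, it had 51.3%, 36.2%, 43.7% and 30.3% in NT1 to NT4, against 14.9%, 13.1%, 19.8% and 18.4% in TT1 to TT4. The fibroblasts were close together, and the lowest embryo sample, NT4, stood above the highest of them, TT3. All 16 of its CpGs with enough calls were higher in NT embryos. Its CpGs recur every 66 bp, with 15 of the 16 having a partner at that distance, as in a tandem array. Whether reads of such copies were placed on the right one was not tested, and the 5 tiles are not independent.

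**Figure D3:**
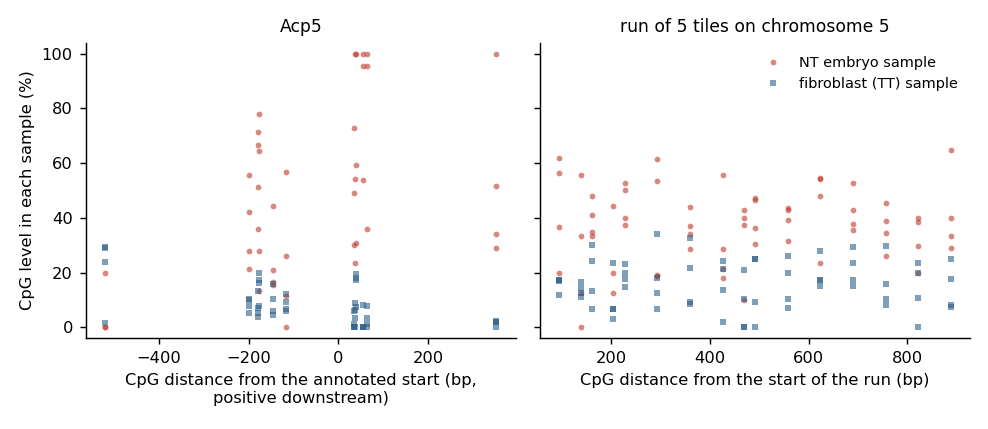
Levels of single CpGs in the Acp5 region and in the run of 5 gaining tiles on chromosome 5. The horizontal axis is the distance in bp from the annotated start of Acp5 (left) or from the start of the run (right), the vertical axis is the CpG level in percent, and each point is 1 CpG in 1 sample. Only samples with at least 5 calls at a CpG are shown. The NT embryo samples shown lie above all fibroblast samples at 8 of the 12 CpGs near Acp5. The same holds at 7 of the 16 CpGs on chromosome 5. NT3 had fewer calls and is left out at the CpGs 34 to 63 bp downstream of the Acp5 start.

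The pairs of gaining tiles at chromosome 12, start 31890900, and chromosome 10, start 111102900, had steeper differences. The chromosome 12 pair had 73.7%, 71.4%, 80.8% and 77.8% in NT1 to NT4, against 26.1%, 25.2%, 43.0% and 42.2% in TT1 to TT4. The chromosome 10 pair had 61.9%, 54.1%, 75.8% and 100% in NT1 to NT4, against 32.7%, 21.4%, 33.3% and 28.3% in TT1 to TT4. The embryo samples were close together in the chromosome 12 pair and far apart in the chromosome 10 pair.

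A gaining tile with 10 CpGs lay 27322 bp downstream of the start of Igf2r, an imprinted receptor gene whose intron holds a region methylated on the maternal chromosome. It had 67.6%, 57.4%, 65.2% and 60.3% in NT1 to NT4, against 34.8%, 29.0%, 19.7% and 25% in TT1 to TT4. The adjoining tile, 100 bp before it, had 17.5%, 67.0%, 6.59% and 13.3% in NT1 to NT4, against 26.7%, 32.2%, 32.3% and 35.1% in TT1 to TT4. Only NT2 was above the fibroblasts in that tile and the other 3 embryo samples were below them. In these 3 samples the adjoining tiles thus differed from the fibroblasts in opposite directions. Farther before the gaining tile, start 12934600 had 0%, 54.2%, 0% and 0% in NT1 to NT4, against 39.3% to 61.4% in fibroblast samples. Start 12934500 had 4.55%, 55.6%, 0% and 0%, against 39.6% to 63.6%. Start 12934400 had 34.6%, 25.3%, 46.2% and 0%, against 32.1% to 44.4%. In the gaining tile the first 5 CpGs were at 58.3% to 100% in the embryo samples, on as few as 4 calls, against 18.2% to 40.9% in the fibroblast samples. The last 2 CpGs of the tile were on average lower in the embryos. Its final CpG had 0%, 25%, 0% and 42.9% in NT1 to NT4, on as few as 1 call, against 38.1%, 37.5%, 33.3% and 40% in TT1 to TT4.

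Gaining tiles were poorer in CpGs than other tiles. The median number of CpGs in a tile was 2 for gaining tiles, 2 for other tiles at the same fibroblast levels and 3 for all tested tiles, and 43.3% of gaining tiles had a single CpG, against 24.7% and 27.9%. Only 16.3% had 4 or more CpGs, against 30.3% of other tiles at the same levels. The authors' deposited CpG density, the number of CpGs within 50 bp, had a median of 2 for gaining tiles, against 3 for other tiles at the same levels and 4 for all. With at least 20 calls in each sample the median of the gaining tiles was 3. Gaining tiles made up 0.359% of tiles with 1 CpG, 0.387% with 2, 0.277% with 3 and 0.0844% with at least 4.

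They also had fewer calls. The median of the lowest number of calls among the 8 samples was 18 for gaining tiles, against 21 for other tiles at the same fibroblast levels and 25 for all tested tiles. The rule was met by 0.369% of tiles with 10 to 19 calls in the lowest sample, 0.212% with 20 to 49 and 0.0738% with at least 50, where the mirrored rule was met by 9.37%, 5.92% and 1.63%. Both rules were thus met less often in the deeper tiles, and the part of counting error in the choice was not tested further. If every call were independent, counting error alone would give these tiles a median SD of 7.11 points in NT embryos and 5.79 in fibroblasts. The observed medians were 12.1 and 7.88 points. Calls that share a read are not independent, so counting error may be larger than the values given for it. In other tiles at the same fibroblast levels the observed medians were 16.6 points in NT embryos and 8.95 in fibroblasts. The rule itself limits the spread within a stage in the gaining tiles.

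Few gaining tiles fell in sequence whose CpG spacing recurs. A run of 5 covered CpGs whose spacing occurs at 10 or more places was found in 2.76% of gaining tiles, against 8.68% of other tiles at the same fibroblast levels and 26.4% of all tested tiles. Such a run could be looked for in 39.5% of gaining tiles, against 53.4% and 62.0%, so repeats of low CpG density were not covered. Across chromosomes the share of gaining tiles ran from 0.132% on chromosome 19 to 0.363% on chromosome 13.

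Tiles next to gaining tiles, which the rule had not chosen, were also higher in NT embryos, over a short distance. Over the 278 neighbouring tiles 100 bp away that were not gaining tiles themselves, the mean was 41.6%, 44.4%, 54.4% and 54.9% in NT1 to NT4, against 39.2%, 37.6%, 45.8% and 43.0% in TT1 to TT4. The groups overlapped, because NT1 and NT2 lay below TT3, and within each strain both embryo samples were above both fibroblast samples. The difference was 7.45 points at 100 bp, 4.72 at 200 bp, 3.55 at 300 to 500 bp, -0.827 at 600 to 1000 bp and -4.60 at 1100 to 2000 bp, over 278, 189, 152, 139 and 180 neighbours. Neighbours of other tiles at the same fibroblast level differed by -5.19, -4.97, -3.60, -4.08 and -5.75 points over the same distances. Those neighbours had a lower fibroblast level themselves, from 34.0% at 100 bp to 19.4% at 600 to 1000 bp, against 41.4% and 47.6% around gaining tiles. Reads can span the border between adjoining tiles, so the nearest neighbours share some reads with the chosen tile. Of the gaining tiles with a tested neighbour within 1 kb, 43 of 382 had a gaining tile there; that is 6.99% of all gaining tiles, against 0.780% of other tiles.

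**Figure D4:**
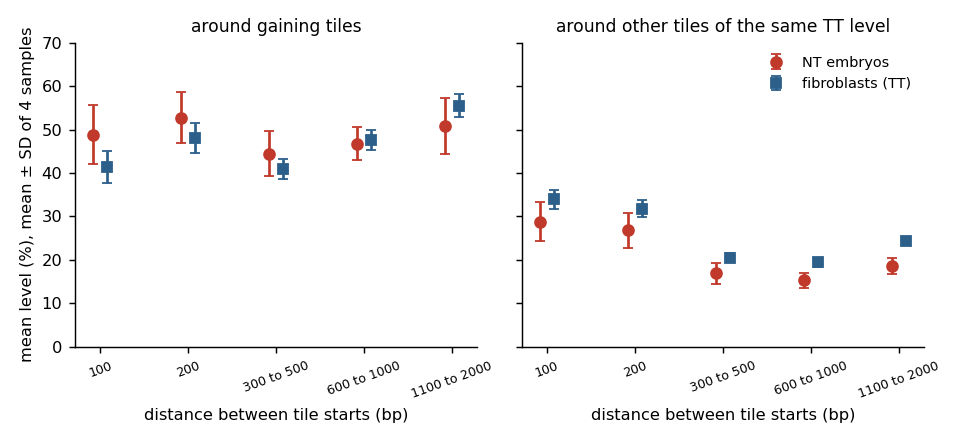
Levels of tiles at increasing distance from a gaining tile, with neighbours that are gaining tiles left out (left), and from other tiles of the same fibroblast level (right). The horizontal axis is the distance between tile starts in bp, the vertical axis is the mean level in percent, and bars are the SD of 4 samples. Around gaining tiles the NT embryo mean is 7.45 points above the fibroblast mean at 100 bp and below it from 600 bp on, and around other tiles it is below at every distance.

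A comparison that the choice did not fix can be had by choosing tiles in 1 strain and measuring them in the samples of the other. The rule applied to the 4 BDF1-CAST samples alone, 2 NT embryo and 2 fibroblast samples, was met by 2768 tiles, 1.04% of those tested. In the X1 samples these tiles averaged 55.2% and 52.0% in NT3 and NT4, against 47.6% and 43.3% in TT3 and TT4. Both embryo samples were above both fibroblast samples. The median difference in X1 was 7.22 points, against -1.89 points for other tiles at the same X1 fibroblast level, and 63.7% of the chosen tiles were higher in X1 NT embryos, against 40.2% of those other tiles. The rule was met again in X1 by 653 tiles, 23.6% of the chosen and 9.66% of the other tiles, while its mirror was met by 7.70% and 16.5%. No tile was called in the quasi-binomial test with X1 samples alone, adjusted by Benjamini-Hochberg over all tiles, nor by limma on transformed levels. Among the chosen tiles the smallest adjusted p was 0.405 in the quasi-binomial test and 0.0801 by limma. With 2 samples against 2 the quasi-binomial test did not call changes put into simulated data either, so 0 calls says little about these tiles. At an unadjusted p under 0.05, 416 of the chosen tiles, 15.0%, were higher in NT embryos, against 5.51% of the other tiles at the same fibroblast level and 2.44% of all tested tiles, and 138 of the chosen tiles, 4.99%, were lower, against 12.5% of those other tiles.

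The opposite direction gave less. The rule applied to the 4 X1 samples alone was met by 6936 tiles, 2.61% of those tested, and in the BDF1-CAST samples these averaged 33.6% and 34.8% in NT1 and NT2, against 37.2% and 34.5% in TT1 and TT2. The groups overlapped, since NT2 lay above TT2. The median difference was -1.39 points, against -6.03 for other tiles at the same fibroblast level, and 46.2% of the chosen tiles were higher in NT embryos, against 28.2% of the others. Tiles chosen in X1 were thus on average not higher in BDF1-CAST embryos, but lay below the fibroblasts by less than other tiles did. Where every sample had at least 50 calls, the median was 0.601 points over 599 tiles, and with a rule of 30 points it was 0.155 points, so the sign of this value depends on the setting. Leaving out TT1 gave a median of 0 points, leaving out TT2 -2.74 and leaving out NT2 -2.60. The rule was met again by 9.41% of the chosen and 3.21% of the other tiles, and the chosen ones are the same 653 tiles as in the first direction. Its mirror was met by more of the chosen tiles, 885 or 12.8%, against 16.7% of the other tiles. At an unadjusted p under 0.05, 606 chosen tiles, 8.74%, were higher in NT embryos, against 3.03% of the other tiles at the same fibroblast level and 2.25% of all tested tiles, while 986 chosen tiles, 14.2%, were lower, against 22.2% of those other tiles. Again 0 tiles were called in BDF1-CAST by the quasi-binomial test and 0 by limma, under the same limit of 2 samples against 2. Among the chosen tiles the smallest adjusted p was 0.0910 in the quasi-binomial test. Without NT1 the fit called 233 of the chosen tiles higher, among 15576 tiles called in either direction, and without NT2 346 among 21393, where the lone embryo sample is assumed to vary like the others.

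**Figure D5:**
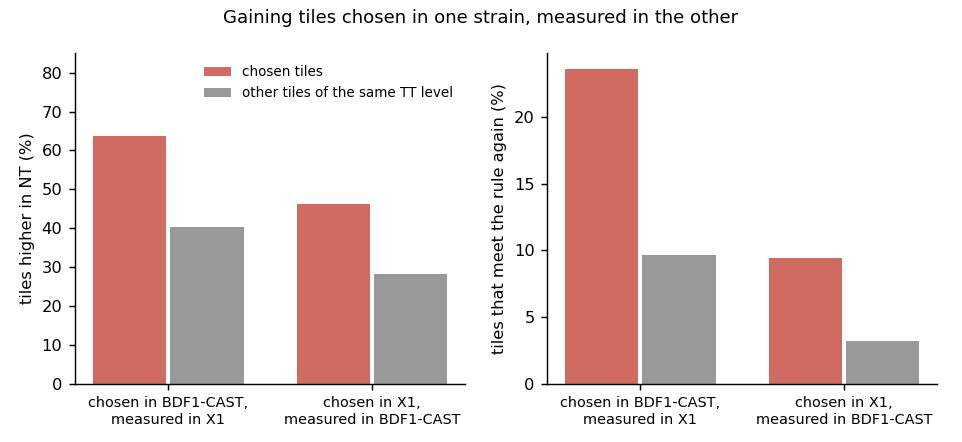
Tiles chosen by the rule in the samples of 1 strain and measured in the samples of the other, beside other tiles of the same fibroblast level. The vertical axes are the percent of tiles higher in NT embryos (left) and the percent that meet the rule again (right), without replicates. Chosen tiles are higher in NT embryos in 63.7% of cases in X1 and 46.2% in BDF1-CAST, against 40.2% and 28.2% of other tiles.

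Of the 615 gaining tiles, 384 met the rule within each strain separately, as did 653 of all 265671 tested tiles. The choice itself fixes the separation within each strain and the mean difference over both strains. Nothing is therefore read from that count. The median difference was 31.1 points in X1 and 28.1 points in BDF1-CAST, and it was the larger one in X1 in 358 tiles and in BDF1-CAST in 257. The level was 9.06 points higher in X1 than in BDF1-CAST among NT embryos, and 5.11 points higher among fibroblasts. The rule did not use the strain labels, but it drops tiles in which a strain difference makes the stages overlap. It thus limits strain differences in gaining tiles, and counts for strain and its product with stage are given as a description. The strain term called 0 gaining tiles at a Benjamini-Hochberg adjusted p under 0.05, against 0.0312% of all tested tiles. At an unadjusted p under 0.05 it reached 109 gaining tiles, 17.7%, against 16.0% of all tested tiles, a share near the background, and 99 of the 109 were higher in X1, as were 26075 of the 42442 among all tested tiles. The product of stage and strain called 0 gaining tiles and 0 of all tested tiles in the same model, with 12.5% of gaining tiles and 8.78% of all at an unadjusted p under 0.05. Strain cannot be told apart from other differences between the libraries numbered 1 and 2 and those numbered 3 and 4.

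The gaining tile with the smallest adjusted p for strain, 0.0638, lay on chromosome 13, start 66969400, with 8 CpGs and at least 162 calls in each sample. It had 41.4%, 40.9%, 57.4% and 56.2% in NT1 to NT4, against 13.7%, 14.2%, 31.8% and 28.9% in TT1 to TT4. Samples of the same strain and stage were nearly equal, X1 samples were on average 16.0 points above BDF1-CAST samples, and they were the higher ones in both stages. The tile on chromosome 12, start 30743000, had 66.7%, 66.0%, 88.9% and 85.5% in NT1 to NT4, against 30.4%, 39.4%, 61.0% and 60.7% in TT1 to TT4, with an adjusted p for strain of 0.0803. The tile on chromosome 3, start 51848600, had 29.7%, 32.8%, 87.0% and 90.5% in NT1 to NT4, against 6.65%, 9.38%, 28.7% and 23.3% in TT1 to TT4, with an adjusted p for strain of 0.0903. In both tiles the BDF1-CAST embryos were near the X1 fibroblasts, and the X1 embryos stood well above all other samples.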

How the data were processed

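Libraries were made by reduced representation bisulfite sequencing of MspI-digested DNA, per the labels' protocols. For each CpG the authors deposited counts of calls and of methylated calls per sample. The build is mm9, per the submitters' processing notes, and which aligner and caller were used is not given in the sources used here. The deposited position counts from 0. CpG density, a further column, is a value that the authors deposited. A table of tiles with 18 columns of other samples was not used.

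The 2 libraries of fibroblast sample 1 (1 and its resequencing 1a) were summed, leaving 8 samples from 9 libraries. Calls were summed in 100 bp tiles, with at least 10 in each sample. Samples held 25239364 to 80142240 calls. Methylated and unmethylated calls entered a quasi-binomial logistic regression on stage and strain for every tile. Its dispersion was moderated with squeezeVar (limma 3.58.1, R 4.3.3), with a floor of 1, and F-test p-values were adjusted by Benjamini-Hochberg over all tested tiles and called at 0.05. Strain was also tested as a product with stage, and stage within each strain. The model was tested on simulated data. Other tiles of the same fibroblast level were weighted over bins of 5 points. Python 3.11.15, numpy 2.4.6, pandas 2.3.3, scipy 1.17.1 and matplotlib 3.10.9 did the rest.

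RefSeq promoters (GRCm38.p6, 250 bases before to 50 after a start) were placed on mm9 where at least 5 consecutive covered CpGs matched their spacing exactly at 1 place on the chromosome, with a shift shared by a neighbouring promoter. Of 19582 promoters with enough CpGs, 8085 were placed, and chromosome 18 was not covered. No coordinates were converted.

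Tiles named are the 6 largest differences, the 6 largest with at least 4 CpGs, the 4 largest under 10% in fibroblasts, those at the 20-point limit, those with the smallest strain p and those near a placed start. Stretches named are from those with the most gaining tiles, with ties ordered by mean difference. The Igf2r tile was picked by the name of its gene, outside these rules. Members, rules and lists were chosen with earlier results of these data known. Alternatives changed the minimum calls, difference, CpGs, tile offset, weighting, chromosomes, model, replicate block and samples left out.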

Additional observations from a re-analysis of the deposited data

Results flagged for a closer look

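Groups of 4 samples were examined for a sample that stands far from the other 3. For independent, normally distributed values chance gives this in about 1 group in 20. The 114 groups came from the named tiles, tiles near a placed start, the Igf2r tile, stretches of gaining tiles, neighbouring tiles and mean levels. At that rate 5.7 groups would be flagged, and there were 3. Many groups are gaining tiles, whose spread the rule limits, and some groups share tiles. The rate therefore need not hold here, and nothing is read from the comparison. The tile of Gm17501, chromosome 3, start 145316700, with 7 CpGs, had 78.8% in NT4, against 12% to 21.9% in the other NT embryo samples, and 11.8% in TT3, against 3.96% to 5.11% in the other fibroblast samples. Its lowest embryo sample lay 0.174 points above TT3. The tile of Gm10444, chromosome 6, start 85091500, with 1 CpG, had 5.26% in TT4 and 0% in the other fibroblast samples, against 19% to 63.6% in the NT embryo samples.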

How the results depend on the processing

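The count of 615 gaining tiles moved to 951 with at least 5 calls, 270 with 20 calls, 1541 with a limit of 10 points, 297 with 30 points and 187 with at least 3 CpGs. Without 1 sample it ran from 639 to 1898. It was 610 without library 1a, 550 with libraries 1 and 1a apart, 637 with CpGs weighted equally, 634 with X and 608 with tiles shifted by 50 bp. Equal weighting kept 542 of the same tiles. The change in X1 of tiles chosen in BDF1-CAST was 10.3 points with the 30-point rule and 5.15 to 8.85 without 1 sample. The change in BDF1-CAST of tiles chosen in X1 was -0.303 points with 20 calls, 0.155 with the 30-point rule and 0.601 with 50 calls, an alternative added after seeing the data, and it ran from -2.74 to 0 without 1 sample. The cause was not tested. Tiles called within BDF1-CAST ran from 0 to 346 without 1 sample, and within X1 stayed at 0. With 20 calls 1 gaining tile was called between strains, with an adjusted p of 0.0448. The stage model, which uses the same contrast as the choice, called 300 gaining tiles, 208 by limma and 0 with the replicate block. The replicate numbers were not taken as pairs, because the correlations of same-numbered deviations were 0.113, 0.131, 0.201 and 0.0421, and the last is below 0.1. The block changed no other call. The difference of neighbours was 7.80 points within 500 bp, 4.53 within 2000 bp and 4.47 with gaining tiles left out, against 6.46 within 1000 bp. Depth limits single tiles: 345 of the 615 had fewer than 20 calls in a sample.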
